A study of Homo sapiens with 6 samples.

Results

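Signalling through interleukin 6 and STAT3 was examined in JJN3 cells, a human multiple myeloma line, after exposure to WNK463, a compound that inhibits the WNK family of kinases. The genes were 10 of the 60728 in the count table, picked by name as cytokine signalling genes central to myeloma growth: the suppressors SOCS1, SOCS2, SOCS3 and CISH, the kinases PIM1, PIM2 and PIM3, the transcription factor STAT3, and the receptor chains IL6R and IL6ST. All 10 were among the 15548 genes with enough reads to be tested. The series held 6 RNA-seq libraries in 3 groups of 2, all labelled wild type: DMSO, the vehicle, with no collection time given, WNK463 for 2 h and WNK463 for 6 h. The concentration is recorded as 5 µM with the samples and as 1 µM in the description of the series, so the dose is uncertain. The DMSO columns of the count table carry a 0 where the others carry the hours, which may mean collection at the start. In that case treatment and time in culture cannot be told apart in the comparisons with DMSO. Whether the libraries of a group came from separate cultures is not recorded, so their spread, on which all p-values rest, may be technical. A single cell line was studied.

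Interleukin 6 binds IL6R and then recruits IL6ST (gp130), whose cytoplasmic tail carries JAK kinases that phosphorylate STAT3. Phosphorylated STAT3 dimers enter the nucleus and switch on survival genes, among them the PIM kinases, and also SOCS genes, whose proteins bind the receptor or the JAK kinases and close the loop. Interleukin 6 from bone marrow stroma is a classical growth factor of myeloma cells, and PIM2 is a kinase on which many myeloma lines depend. All measurements here are of RNA, so neither phosphorylation of STAT3 nor kinase activity was observed.

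Library totals ran from 18013790 to 24002291 counts. Levels are given as CPM (counts relative to the library total after TMM scaling, which corrects for library composition), and 3 counts, the limit that a count of 0 allows, correspond to 0.128 to 0.166 CPM depending on the library, for counting error only. All 10 plasma cell markers examined were at or above 1 CPM in every group, with summed levels of 2490 to 2574 CPM in DMSO, 2430 to 2475 at 2 h and 2271 to 2332 at 6 h. The 8 T cell markers summed to 2.41 to 2.71, 1.96 to 2.84 and 3.61 to 4.99 CPM in the same order. Of these only TRAC reached 1 CPM, and it rose at 6 h (log2 change 1.01, adjusted p = 0.0373), while CD3D and CD3G had 0 counts in all 6 libraries. The part of these RNAs in the results was not tested. The 8 myeloid markers summed to between 4.77 and 8.95 CPM and the 8 fibroblast markers to between 0.204 and 1.32 CPM over all libraries.

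The RNAs differed widely in abundance in DMSO. Per kilobase of exon (RPKM), PIM2 led with 194.7 ± 11.1 (SD, n = 2 libraries, as for all values below), rank 134 of 15548 tested genes. PIM3 followed at 45.5 ± 9.07, IL6ST at 41.8 ± 3.25, PIM1 at 32.6 ± 1.72 and STAT3 at 15.4 ± 1.11 RPKM. Far below them lay IL6R at 3.12 ± 0.294, SOCS2 at 2.72 ± 0.139, SOCS3 at 1.32 ± 0.162, SOCS1 at 1.15 ± 0.470 and CISH at 0.312 ± 0.0491 RPKM. Neighbours in this order did not overlap between libraries except PIM3 with IL6ST and SOCS3 with SOCS1. At 2 h SOCS3 had moved up to 5.42 ± 0.707 RPKM, above SOCS2 (4.54 ± 0.0476) and IL6R (3.86 ± 0.204), and at 6 h IL6ST (60.5 ± 1.62) lay above PIM3 (46.9 ± 1.64).

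Of the 10 genes, 7 rose and 1 fell between DMSO and 2 h (edgeR quasi-likelihood test, Benjamini-Hochberg adjusted p under 0.05, the threshold used throughout), against 17.0% of all tested genes called in either direction, 8.68% higher and 8.32% lower. At 6 h 6 were higher and 2 lower than in DMSO, where 36.6% of all genes were called, 18.0% higher and 18.6% lower. Their median log2 change was 0.50 at 2 h and 0.51 at 6 h, beside -0.0049 and -0.0050 over all tested genes. Both comparisons use the same DMSO libraries. The 10 genes, and the pathway lists used further below, were chosen with earlier results of these data known. Their shares beside those of all genes are therefore a description, and an excess was not tested. Between 2 h and 6 h 1 gene was called higher and 4 lower, where 24.3% of all genes were called, 11.1% higher and 13.1% lower, and the median was -0.22 against 0.014. With library size alone as the scaling the last split became 2 higher and 4 lower, and over all genes it changed from 1731 higher and 2041 lower to 2409 higher and 1523 lower. Without the first 6 h library fewer of the 10 were called between 2 h and 6 h, and fewer of all genes too.

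**Figure D1:**
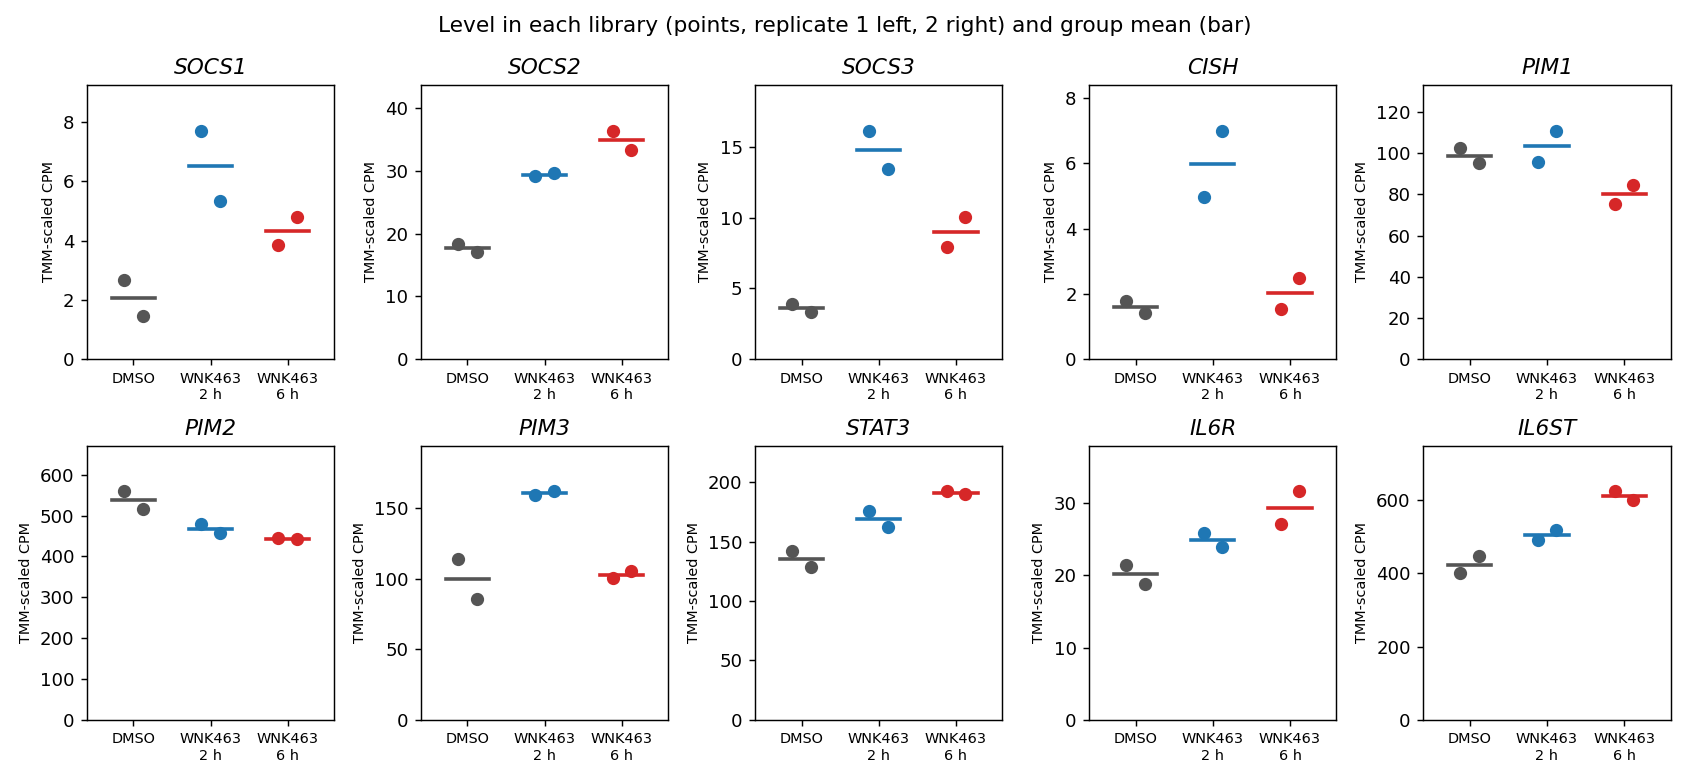
Level of each of the 10 genes in the 6 libraries, in TMM-scaled CPM on a linear axis from 0; points are libraries and bars group means. SOCS1, SOCS3, CISH and PIM3 are highest at 2 h, SOCS2, STAT3, IL6R and IL6ST are highest at 6 h, and PIM2 is highest in DMSO.

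The SOCS genes encode adaptor proteins with an SH2 domain, which binds phosphotyrosine, and a SOCS box, which recruits a ubiquitin ligase. SOCS3 binds IL6ST itself and is the main brake on this receptor. Its RNA stood at 3.93 and 3.31 CPM in DMSO, at 16.2 and 13.4 CPM after 2 h, and at 7.93 and 10.1 CPM after 6 h. The 3 groups did not overlap, with 2 h highest and DMSO lowest. SOCS3 rose 4.09-fold at 2 h (log2 change 2.03 ± 0.213 SE, adjusted p = 3.61e-10) and remained 2.49-fold above DMSO at 6 h (1.32 ± 0.218, adjusted p = 3.11e-06). From 2 h to 6 h it fell by 0.71 on the log2 scale (adjusted p = 0.00439). That fall was not called without the first 2 h library (-0.58, adjusted p = 0.0826) or the first 6 h library (-0.55, adjusted p = 0.119).

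SOCS1 binds the JAK kinases directly and blocks their activity. It gave 2.66 and 1.46 CPM in DMSO, 7.71 and 5.34 at 2 h, and 3.86 and 4.78 at 6 h, from 31 to 141 counts. Every treated library lay above both DMSO libraries, which themselves differed from each other. The rise was 3.18-fold at 2 h (log2 change 1.67 ± 0.311, adjusted p = 7.72e-05) and 2.12-fold at 6 h (1.08 ± 0.318, adjusted p = 0.00582). The 6 h call was lost without the second DMSO library (0.70, adjusted p = 0.120) or the second 6 h library (0.92, adjusted p = 0.0577), and the step from 2 h to 6 h was not called (-0.59, adjusted p = 0.141).

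CISH, the founding SOCS family member, acts mainly on receptors that use STAT5. Per exon length its level was the lowest of the 10 genes in all 6 libraries. That ranking rests on an annotated exon length of 5112 bases in 2 blocks, against 1797 bases for SOCS1. In CPM, CISH lay above SOCS1 in the second 2 h library (7.00 against 5.34). It gave 1.77 and 1.42 CPM in DMSO, 4.97 and 7.00 at 2 h, and 1.55 and 2.49 at 6 h. The 2 h libraries stood above all others, while DMSO and 6 h overlapped. CISH rose 3.77-fold at 2 h (log2 change 1.92 ± 0.346, adjusted p = 4.75e-05) and fell by 1.57 on the log2 scale from 2 h to 6 h (adjusted p = 0.000342). At 6 h its difference from DMSO was 0.35 with a 95% interval of -0.40 to 1.09 (adjusted p = 0.508).

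SOCS2, best known as a brake on growth hormone signalling, was the most abundant of these suppressors in DMSO. It stood at 18.3 and 17.0 CPM in DMSO, 29.2 and 29.6 at 2 h, and 36.4 and 33.4 at 6 h. The groups did not overlap, and 6 h was highest. The rise was 1.67-fold at 2 h (log2 change 0.74 ± 0.126, adjusted p = 1.87e-05) and 1.98-fold at 6 h (0.99 ± 0.126, adjusted p = 1.32e-08). The further 0.25 from 2 h to 6 h was not called (95% interval 0.0039 to 0.49, adjusted p = 0.137). Summed per exon length, SOCS1, SOCS2, SOCS3 and CISH together held 6.09 and 4.93 RPKM in DMSO, 15.7 and 13.8 at 2 h, and 10.98 and 11.99 at 6 h. SOCS3 made up 23.6% and 24.5% of that sum in DMSO, 37.7% and 35.6% at 2 h, and 26.4% and 30.7% at 6 h.

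CISH and SOCS1 also differ in the sequence before their start sites, which is shown because STAT dimers bind the palindrome TTCNNNGAA (N is any base, so it reads alike on both strands). RefSeq promoters (GRCh38.p14, 250 bases before to 50 after a start site) were found for 9 of the 10 genes, 10 windows in all, since SOCS3 has 2. The CISH window, chr3:50611725-50612024 on the minus strand, and the SOCS1 window, chr16:11256155-11256454 on the minus strand, read 5′ to 3′ as follows, with matches to TTCNNNGAA in capitals.
CISH: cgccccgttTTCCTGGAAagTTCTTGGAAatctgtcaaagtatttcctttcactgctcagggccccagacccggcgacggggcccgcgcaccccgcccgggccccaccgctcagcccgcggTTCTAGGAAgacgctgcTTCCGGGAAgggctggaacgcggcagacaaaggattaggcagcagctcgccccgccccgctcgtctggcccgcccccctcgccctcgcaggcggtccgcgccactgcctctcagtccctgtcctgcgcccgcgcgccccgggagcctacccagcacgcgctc
SOCS1: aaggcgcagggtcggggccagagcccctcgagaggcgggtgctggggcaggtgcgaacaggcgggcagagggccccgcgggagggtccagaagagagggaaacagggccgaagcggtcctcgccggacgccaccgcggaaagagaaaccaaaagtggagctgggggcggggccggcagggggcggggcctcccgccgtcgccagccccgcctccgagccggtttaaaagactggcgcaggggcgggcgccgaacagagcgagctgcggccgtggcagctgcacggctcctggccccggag
The CISH window holds 4 matches, TTCCTGGAA, TTCTTGGAA, TTCTAGGAA and TTCCGGGAA, whose first bases lie 241, 230, 129 and 112 bases before the start site. The SOCS1 window and the other 8 hold no match. Over all 35116 RefSeq promoter windows 7.66% hold at least 1 match and 7 windows hold 4 or more, a count made after the CISH matches were seen. The AP-1 motif TGANTCA, present in 7.71% of windows, was found only in that of IL6R among the 10, 37 bases after the start site, and the CREB motif TGACGTCA, present in 1.85%, in none of them. Matches do not overlap each other and are a description of these letters, not evidence of binding. The RefSeq start sites of SOCS3 lie 848 bases upstream and 410 bases downstream of the gene start in the count table's annotation, so the sequence just before that start was not searched. Those of IL6R, STAT3, IL6ST, CISH and PIM3 lie 150, 126, 59, 57 and 4 bases downstream of the gene starts in that annotation. Motif positions here count from the RefSeq start sites.

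**Figure D2:**
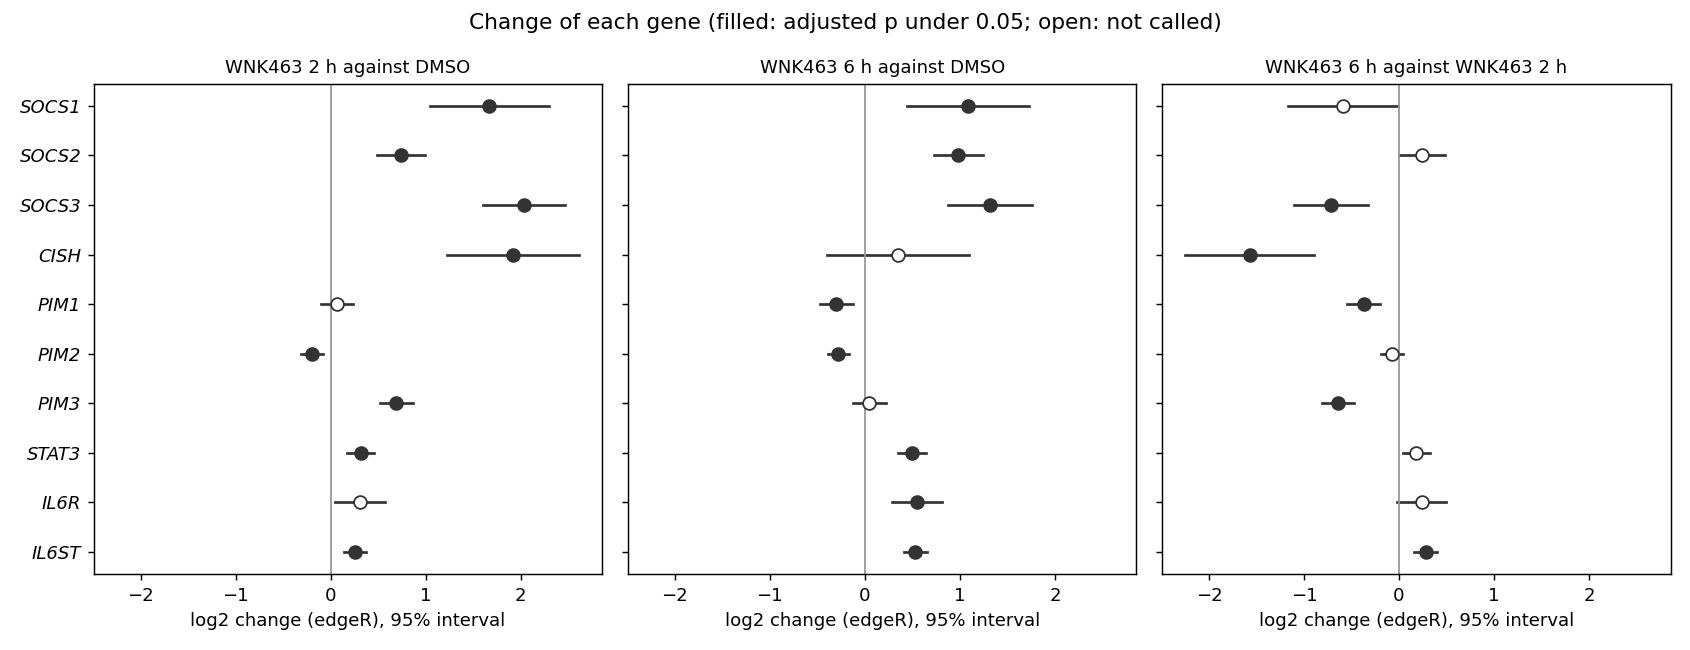
Log2 change of each gene in the 3 comparisons, with 95% intervals from the edgeR fit; filled points have an adjusted p under 0.05. SOCS3, CISH and SOCS1 have the largest changes at 2 h (2.03, 1.92 and 1.67), and CISH and PIM3 return to 0.35 and 0.05 at 6 h.

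PIM1, PIM2 and PIM3 are serine/threonine kinases that are active as soon as they are made, so that their output follows their protein levels, which were not measured. Their substrates promote survival, translation and the cell cycle. The 3 genes went different ways at 2 h. PIM3 had 114.0 and 85.8 CPM in DMSO, 159.5 and 162.1 at 2 h, and 100.5 and 105.6 at 6 h. Both 2 h libraries stood above all others, and the 6 h libraries lay between the 2 DMSO values. PIM3 rose 1.61-fold at 2 h (log2 change 0.69 ± 0.0856, adjusted p = 2.89e-08) and fell again by 0.64 from 2 h to 6 h (adjusted p = 9.04e-08). At 6 h it differed from DMSO by 0.05 (95% interval -0.13 to 0.22, adjusted p = 0.724). Without the first DMSO library the 6 h value was called higher (0.26, adjusted p = 0.00369).

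PIM2, the kinase that dominates in myeloma, ran the opposite way. It gave 559.2 and 515.7 CPM in DMSO, 478.8 and 456.8 at 2 h, and 445.2 and 441.5 at 6 h, with no overlap between groups. It fell by 0.20 on the log2 scale at 2 h (SE 0.0571, adjusted p = 0.0102) and by 0.28 at 6 h (SE 0.0572, adjusted p = 0.00011). The fall at 2 h was not called without the second 2 h library (-0.17, adjusted p = 0.227), and 2 h and 6 h were not called different (-0.08, adjusted p = 0.364).

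PIM1, a direct STAT3 and STAT5 target in many blood cells, stood at 102.4 and 95.1 CPM in DMSO, 95.7 and 111.0 at 2 h, and 75.4 and 84.7 at 6 h. DMSO and 2 h overlapped, and both 6 h libraries were below them. At 2 h its change was 0.07 (95% interval -0.10 to 0.24, adjusted p = 0.656). At 6 h it had fallen by 0.30 relative to DMSO (SE 0.0858, adjusted p = 0.00431) and by 0.37 relative to 2 h (adjusted p = 0.000837). The fall from DMSO was not called without the first 6 h library (-0.22, adjusted p = 0.164), nor that from 2 h without this library (-0.29, adjusted p = 0.0789) or without the second 2 h library (-0.26, adjusted p = 0.111). Per exon length PIM2 made up 70.3% and 72.6% of the RNA of the 3 kinases in DMSO, 62.5% and 60.0% at 2 h, and 69.6% and 67.8% at 6 h. The share of PIM3 was 18.0% and 15.2% in DMSO, 26.1% and 26.7% at 2 h, and 19.7% and 20.4% at 6 h. The summed level was 288.2 and 257.2 RPKM in DMSO, 277.6 and 275.8 at 2 h, inside that range, and 231.8 and 235.9 at 6 h, below it.

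**Figure D3:**
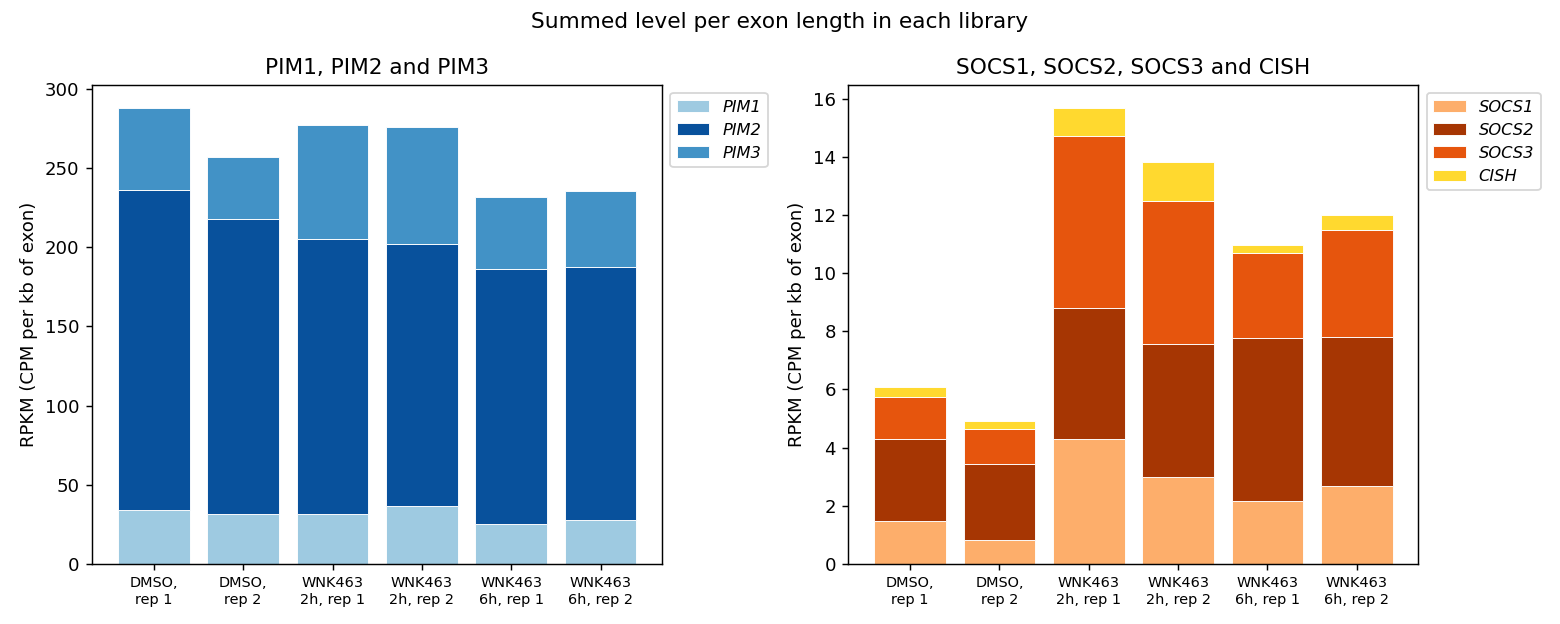
Stacked RPKM of the 3 PIM kinases (left) and of SOCS1, SOCS2, SOCS3 and CISH (right) in each library, axes from 0. PIM2 is the largest PIM segment in every library, the PIM3 segment is largest at 2 h, and the SOCS stack grows from 6.09 and 4.93 RPKM in DMSO to 15.7 and 13.8 at 2 h.

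The receptor chains and STAT3 were all higher than in DMSO at 6 h. IL6ST, the signal-transducing chain shared by the interleukin 6 family, had 399.9 and 446.3 CPM in DMSO, 489.8 and 518.8 at 2 h, and 623.6 and 600.3 at 6 h. The groups stood apart in that order. IL6ST rose 1.19-fold at 2 h (log2 change 0.25 ± 0.0583, adjusted p = 0.0013) and 1.45-fold at 6 h (0.53 ± 0.0583, adjusted p = 3.07e-10). It was the single gene of the 10 called higher at 6 h than at 2 h (0.28 ± 0.0581, adjusted p = 0.000229). The rise at 2 h was not called without the second 2 h library (0.21, adjusted p = 0.0797). IL6STP1, a pseudogene copy, had at most 3 counts in any library.

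STAT3 is the transcription factor that carries the receptor's signal to the nucleus and a target of its own product. Its levels were 142.4 and 128.6 CPM in DMSO, 175.4 and 161.9 at 2 h, and 192.3 and 189.7 at 6 h, again without overlap. It rose 1.24-fold at 2 h (log2 change 0.32 ± 0.0717, adjusted p = 0.00108) and 1.41-fold at 6 h (0.50 ± 0.0716, adjusted p = 2.15e-07). The 2 h call was lost without the first 2 h library (0.26, adjusted p = 0.0695). The step from 2 h to 6 h was not called (0.18 ± 0.0709, adjusted p = 0.0572), but it passed in 6 of 15 alternatives.

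IL6R, the chain that binds interleukin 6, had 21.5 and 18.8 CPM in DMSO, 25.9 and 24.0 at 2 h, and 27.1 and 31.6 at 6 h. The libraries ascended from DMSO through 2 h to 6 h without overlap. The 2 h difference was not called (log2 change 0.31 ± 0.132, 95% interval 0.04 to 0.57, adjusted p = 0.104), and at 6 h IL6R was 1.46-fold above DMSO (0.55 ± 0.131, adjusted p = 0.00077). The ligand gene IL6 itself had 0 counts in 5 libraries and 2 counts in the first 6 h library, at or below the 3-count limit.

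The other cytokine and receptor genes of the pathway were counted from a list of 34, of which 20 had enough reads to be tested. Of these, 9 rose at 2 h (45.0% called against 17.0% of all genes, median log2 change 0.28) and 9 at 6 h (45.0% against 36.6%, median 0.44). The smallest adjusted p at 2 h belonged to IL10, a cytokine that signals through STAT3. IL10 stood at 36.1 and 40.5 CPM in DMSO, 104.7 and 91.1 at 2 h, and 119.4 and 123.7 at 6 h. Both treated groups stood far above DMSO. The rise was 1.35 ± 0.0905 at 2 h (adjusted p = 3.33e-16) and 1.66 ± 0.0904 at 6 h (adjusted p = 9.74e-20). Its receptor chains IL10RB (1.56 at 2 h and 1.36 at 6 h) and IL10RA (0.31 at 2 h and 0.56 at 6 h) rose as well, although 38.3% of the exonic length of IL10RB is shared with a readthrough gene. IL10RA at 2 h (adjusted p = 0.0386) was not called without the second DMSO library, either 2 h library or either 6 h library (adjusted p from 0.0501 to 0.257). CLCF1, an interleukin 6 family ligand, went from 3 and 2 counts in DMSO to 35 and 53 at 2 h and 18 and 13 at 6 h. IFNGR1 (0.51 and 0.60 at the 2 times) and CSF2RB (0.52 at 2 h) encode receptor chains for interferon gamma and for the interleukin 3 family. Fewer of the 20 were called at 2 h without the second DMSO library, where more of all genes were called. Fewer were also called without the second 2 h library, where fewer of all genes were called. From 2 h to 6 h, where 24.3% of all genes were called, 1 of the 20, IL10, was called (0.31, adjusted p = 0.00429), and not without the second 2 h library (adjusted p = 0.220) or the second 6 h library (adjusted p = 0.0852).

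All 30 listed JAK kinases, other STAT factors and brakes were tested. At 2 h 5 rose and 1 fell (20.0% called, near the 17.0% of all genes, median 0.10), and with library size alone 4 rose and 2 fell. Over all genes that scaling gave 1128 higher and 1561 lower. The adaptor gene SH2B3, a brake on JAK2, was among those that rose (0.33, adjusted p = 0.000745). Of the other SOCS genes, SOCS5 and SOCS7 rose (0.38 and 0.29) and SOCS4 fell (-0.31). Without the second 2 h library fewer of the 30, and fewer of all genes, were called at 2 h. SH2B3 (0.28), SOCS4 (-0.31), SOCS5 (0.33) and SOCS7 (0.29) were then not called. SOCS4 and SOCS7 were also not called without the second DMSO library (adjusted p = 0.337 and 0.246) or the first 2 h library (adjusted p = 0.0729 and 0.106), nor SOCS5 without the first DMSO library (adjusted p = 0.0971). At 6 h 10 rose and 2 fell (40.0%, near the 36.6% of all genes, median 0.12). STAT2, which acts in interferon signalling, went from 18.2 and 15.3 CPM in DMSO and 18.3 and 21.1 at 2 h to 47.1 and 45.1 at 6 h (log2 change 1.46 ± 0.128, adjusted p = 5.64e-13). STAT4 rose by 0.89 and the ubiquitin ligase gene CBL by 0.49. Without the first 6 h library fewer of the 30 were called at 6 h, and fewer of all genes too.

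Among the JAK kinases that associate with IL6ST, JAK2 was called at 6 h. It had 4.32 and 7.61 CPM in DMSO, 7.65 and 6.79 at 2 h, and 13.6 and 14.8 at 6 h, so that DMSO and 2 h overlapped and 6 h stood above both. The rise at 6 h was 1.24 ± 0.211 against DMSO (adjusted p = 5.39e-06) and 0.98 ± 0.207 against 2 h (adjusted p = 0.000283). JAK1, at 223.6 and 251.8 CPM in DMSO, changed by 0.09 at 2 h and 0.15 at 6 h (adjusted p = 0.402 and 0.0730), and TYK2 by -0.25 and -0.08 (adjusted p = 0.0762 and 0.603). From 2 h to 6 h 6 of the 30 rose and 4 fell (33.3% against 24.3% of all genes), STAT5B (-0.35) and SH2B3 (-0.48) among the falls. Without the first 6 h library fewer of the 30, and fewer of all genes, were called in this comparison. The fall of STAT5B was then -0.28 and not called.

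Of 33 genes known to respond to STAT3, 23 were tested, and 10, mostly acute phase genes of the liver, had too few reads. At 2 h 11 rose and 3 fell (60.9% called against 17.0% of all genes, median 0.32), and at 6 h 9 rose and 4 fell (56.5% against 36.6%, median 0.24). JUNB and ICAM1 rose at 2 h by 0.84 ± 0.102 and 0.77 ± 0.101 and fell from 2 h to 6 h by 0.60 and 0.78. ZFP36, which destabilises cytokine mRNAs, rose by 0.90 at 2 h and 0.78 at 6 h. BCL2, a survival gene, rose by 0.34 at 2 h and 0.44 at 6 h. PRDM1, the gene of the plasma cell regulator BLIMP1, rose by 0.33 and 0.42 at the 2 times, and the growth factor gene HGF by 0.31 and 0.38. MYC moved the other way, from 884.0 and 824.3 CPM in DMSO to 536.8 and 534.1 at 2 h. It stood at 464.4 and 462.3 CPM at 6 h. BIRC5 also fell, by 0.34 at 2 h and 0.44 at 6 h. From 2 h to 6 h 1 rose and 6 fell (30.4% against 24.3% of all genes), or 3 and 6 with library size alone. Without the second 2 h library or the second 6 h library fewer were called, and fewer of all genes too. ICAM1 shares 25.4% of its exonic length with antisense genes, and counting ignored strand.

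All 18 listed substrates of the PIM kinases were tested. Of these, 6 rose and 1 fell at 2 h (38.9% called against 17.0% of all genes, median 0.14), and 7 rose and 3 fell at 6 h (55.6% against 36.6%, median 0.23), or 9 and 2 with library size alone. Over all genes that scaling gave 3067 higher and 2540 lower at 6 h. The cell cycle inhibitors CDKN1A and CDKN1B, which PIM kinases phosphorylate, differed in size of response. CDKN1A went from 78.3 and 71.5 CPM in DMSO to 166.4 and 166.9 at 2 h and 169.7 and 166.6 at 6 h (log2 change 1.16 ± 0.0748 at 2 h, adjusted p = 1.11e-16), and CDKN1B rose by 0.35 at 2 h (adjusted p = 0.00364) and 0.36 at 6 h (adjusted p = 0.00107). Its 2 h call was lost without the second 2 h library (adjusted p = 0.158). The transcription factor genes MYB (0.55 at 2 h and 0.52 at 6 h) and FOXO3 (0.27 and 0.37) rose at both times, and RUNX3 rose at 2 h (0.56) and fell from 2 h to 6 h (-0.45). FOXO3 at 2 h was not called without the first 2 h library (adjusted p = 0.0679). CDC25A, a phosphatase of the G1-S transition, fell by 0.43 at 6 h. MYC, listed here too, is the single fall at 2 h. From 2 h to 6 h, where 24.3% of all genes were called, 2 rose and 7 fell, or 3 and 5 with library size alone. Without the first or the second 6 h library fewer were called in that comparison, and fewer of all genes too.

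**Figure D4:**
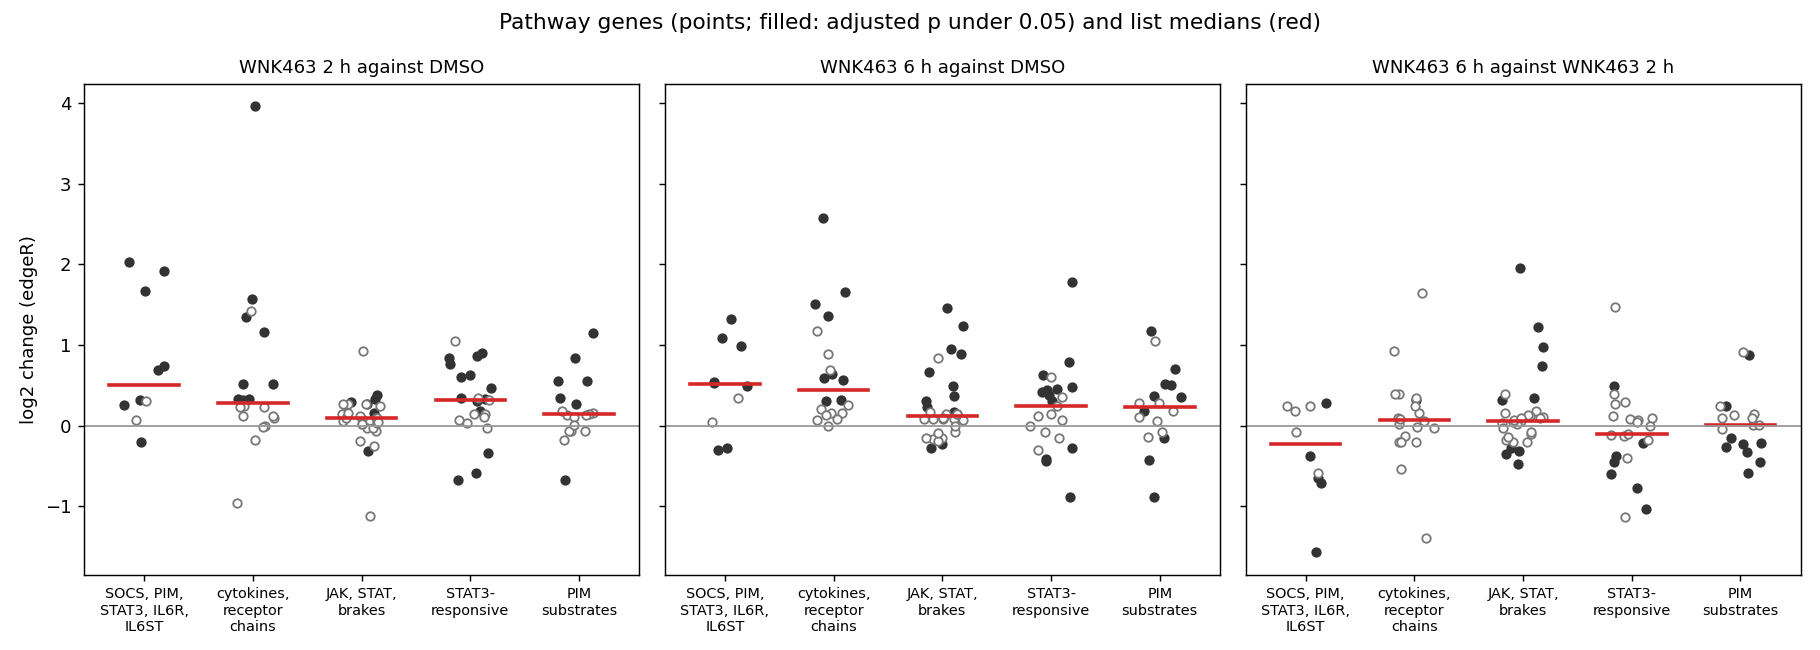
Log2 changes of the tested genes of each list in the 3 comparisons; points are genes, filled where the adjusted p is under 0.05, and red bars are list medians. The medians at 6 h against DMSO are 0.51, 0.44, 0.12, 0.24 and 0.23 from left to right, against -0.0050 for all tested genes.

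The genes whose levels ran closest to SOCS3 over the 6 libraries were sought by the distance between log2 CPM profiles, each centred on its own mean, among 10620 genes of at least 4 CPM. They were MXD1, an antagonist of MYC at shared DNA sites (distance 0.47), FRAT1 (0.48), the pseudogene HSD3BP5 (0.52), the kinase gene SGK1 (0.52) and the pro-apoptotic BBC3 (0.55). Their changes at 2 h ran from 1.65 for SGK1 to 2.00 for FRAT1. Closest to STAT3 were the histone demethylase gene KDM6A (0.05), MTCL1 (0.06), SPRING1 (0.08), TMEM231 (0.09) and the fibronectin gene FN1 (0.09). These distances describe 6 libraries in 3 groups and carry no test.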

How the data were processed

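RNA of 6 JJN3 libraries was sequenced. The deposited values are fragment counts per gene. Per the file headers they were made with featureCounts 2.0.0 on GENCODE 34, from paired reads with a mapping quality of at least 20 and without regard to strand. Per the submitters' processing notes reads were trimmed with Trimmomatic and aligned with STAR to hg38 (versions not given). The authors' table also gives exon lengths. A record broken over 3 lines was rejoined, and 60370 of 60728 identifiers matched a symbol.

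Counts were fitted in R 4.3.3 with edgeR 4.0.16 (quasi-likelihood, TMM, filterByExpr, all 6 libraries, a mean per group). Adjusted p-values are Benjamini-Hochberg over 15548 genes. The SE follows from the F statistic, and with 42.8 prior degrees of freedom against 3 residual ones, a gene's spread is largely that of all genes. CPM and RPKM were computed from the counts and exon lengths. The libraries of each group varied beyond counting error, with a chi-square of 9.23 (DMSO), 4.21 (2 h) and 3.60 (6 h) per degree of freedom. The procedure was tested on simulated data. The genes and lists were chosen with earlier results of these data known. Named pathway genes came from the up to 6 called genes per list and comparison with the smallest adjusted p. IL6, JAK1, JAK2 and TYK2 were added regardless, and SOCS4, SOCS5 and SOCS7 also fall under the rule. Profiles were compared for SOCS3 and STAT3 only, with 5 genes each and a prior count of 2. Overlaps came from the deposited exon coordinates: 4.28% of the exonic length of SOCS2, 4.26% of CISH and 7.88% of IL6ST are shared with another gene. The gene overlapping IL6ST had 0 counts. MAPKAPK3, on the strand opposite CISH, had 29.5 to 40.6 CPM. SOCS2-AS1, opposite SOCS2, had 5.10 and 3.26 CPM in DMSO, 4.37 and 4.27 at 2 h, and 6.39 and 6.46 at 6 h. Counting ignored strand, and the part of these overlaps in the counts of CISH and SOCS2 was not tested. The other 7 genes share none. The fits were repeated with each library left out, a replicate block, other filters and scalings, and the compared groups alone. The reported fit was also read at a threshold of 0.01. DESeq2 1.42.0 and voom from limma 3.58.1 served as other tests. Figures used Python 3.11.15 and matplotlib 3.10.9.

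On hg38 the genes span, by the deposited coordinates, chromosome 16 from 11254408 to 11256204 (SOCS1, ENSG00000185338.6), 12 from 93569814 to 93583487 (SOCS2, ENSG00000120833.14), 17 from 78356778 to 78360077 (SOCS3, ENSG00000184557.4), 3 from 50606490 to 50611831 (CISH, ENSG00000114737.15), 6 from 37170152 to 37175428 (PIM1, ENSG00000137193.14), X from 48913182 to 48919024 (PIM2, ENSG00000102096.9), 22 from 49960768 to 49964072 (PIM3, ENSG00000198355.5), 17 from 42313324 to 42388568 (STAT3, ENSG00000168610.14), 1 from 154405193 to 154469450 (IL6R, ENSG00000160712.13) and 5 from 55935095 to 55995022 (IL6ST, ENSG00000134352.20). All 10 are protein-coding in GENCODE 29.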

Additional observations from a re-analysis of the deposited data

Results flagged for a closer look

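For 5 of the 10 genes the change from DMSO differed between 6 h and 2 h by the test of that difference, in which the DMSO libraries enter through the shared estimate of spread: SOCS3 (-0.71, log2, 6 h minus 2 h), CISH (-1.57), PIM1 (-0.37), PIM3 (-0.64) and IL6ST (0.28). The same test set apart 21 named pathway genes. Higher at 6 h were IL10 (0.31), JAK2 (0.98), STAT2 (1.22), STAT4 (0.74), PIAS3 (0.34), CBL (0.32), CDC25C (0.88) and NUMA1 (0.25). Lower at 6 h were STAT5B (-0.35), SH2B3 (-0.48), JUNB (-0.60), FOS (-1.03), MYC (-0.21), CEBPB (-0.38), VEGFA (-0.44), ICAM1 (-0.78), CDC25A (-0.59), EIF4B (-0.26), RUNX1 (-0.33), RUNX3 (-0.45) and SND1 (-0.23). With a library left out, the calls of SOCS3, PIM1, IL10, PIAS3, CBL, NUMA1, STAT5B, FOS, MYC, CEBPB, VEGFA, RUNX1 and SND1 were each lost in at least 1 fit (adjusted p from 0.0508 for MYC to 0.267 for RUNX1).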

How the results depend on the processing

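Across 15 alternatives the 10 genes kept their direction wherever they were called. One of these, the threshold of 0.01, is the reported fit itself, so its directions could not differ and only its calls could. Each gene gave a result per comparison and alternative, and a result counted as unchanged if it was called in both fits or in neither. Of 180 results with a library left out 167 were unchanged, 10 lost a call and 3 gained one. Of 270 other results 265 were unchanged, 1 lost a call and 4 gained one. The unchanged results include those never called, so they are not a count of calls kept. The count of called genes over the whole table at 2 h was 1560 at a threshold of 0.01, and of JAK, STAT and brake genes 2. The called cytokine and receptor genes between 2 h and 6 h, 1 in the fit reported, numbered 3 with library size alone, 2 with a minimum of 1 CPM, 5 with only the groups compared and 2 in limma voom. Over all genes that comparison gave 1731 higher and 2041 lower of 15548 in the fit reported. It gave 2409 and 1523 with library size alone and 1855 and 2092 in limma voom, of the same 15548. With a minimum of 1 CPM it gave 1826 and 2065 of 13641, and with only the groups compared 2087 and 2552 of 14979. With a library left out, counts ran from 1527 (second 2 h library out) to 2911 for all genes at 2 h and from 2288 (first 6 h library out; 2372 with the second out) to 4661 between 2 h and 6 h. Those of the 10 genes ran from 6 to 8 at 2 h, 7 to 9 at 6 h and 3 to 6 between the times. Cytokine and receptor genes gave 5 to 9 at 2 h and 0 to 3 between the times, JAK, STAT and brake genes 1 to 8 at 2 h, 4 to 13 at 6 h and 6 to 12 between the times, STAT3-responsive genes 4 to 10 and PIM substrates 5 to 9 between the times. With a replicate block the 10 genes gave 8, 8 and 5 calls in the 3 comparisons, as without it, and all genes 2658, 5686 and 3807. Deviations of same-numbered libraries correlated at 0.083, -0.090 and -0.030, all at or under 0.1, which does not show pairing. The column names give same-numbered libraries a shared letter whose meaning is not stated. The cause of these differences was not tested. Depth limits CISH (30 to 164 counts) and SOCS1 (31 to 141 counts) most.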
